A study of Bos indicus with 9 samples.

Results

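The major histocompatibility region of cattle was taken as every peak on chromosome 23 that overlaps 25 to 29 Mb of ARS-UCD1.2 in the consensus peak lists for hypothalamus, muscle, and liver. It held 409 of the 140923 peaks in the 3 lists, with 217 peaks in hypothalamus, 122 in muscle, and 70 in liver, and no peak crossed either edge. Open chromatin was measured by ATAC-seq, in which the Tn5 transposase cuts accessible DNA and the cut fragments are sequenced. The 9 libraries came from the same 3 unrelated Brahman heifers of similar age and weight, which were past puberty and for which the labels name no treatment, with 1 library per heifer and tissue. Nuclei were prepared from ground frozen tissue without sorting, so each list mixes all cell types of its tissue, and fewer cells with an open site cannot be told apart from a site that is less open in each cell. The p values of the 3 heifers were combined into 1 list per tissue before deposit, so values of the individual heifers and the read depth behind a peak cannot be read from the lists, and no test between tissues was made. Each peak has a −log10 p at its summit and an area under the curve (AUC), which sums the −log10 p above the threshold over the length of the peak. Neither value was scaled between lists, so tissues are compared by the percentile of a peak within its own list. By the paper's counts, the share of peaks outside chromosomes 1 to 29 and X differs between lists and is largest for liver. Percentiles and whole-list shares thus have unlike bases. Peaks of chromosome 23 outside the region already had unequal median percentiles: 50.7 (hypothalamus), 44.6 (muscle), and 33.3 (liver).

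The major histocompatibility complex holds the genes by which cells display peptides to T cells. Class I molecules are made by nearly all nucleated cells and present peptides from inside the cell, while class II molecules are made mainly by professional antigen-presenting cells and present peptides taken up from outside. Class III genes lie between them and code for complement factors, cytokines of the tumor necrosis factor family, and many proteins with general roles in the cell. In cattle the class II genes are split into separate blocks on chromosome 23, and the block called class IIb lies away from the rest.

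Gene positions on ARS-UCD1.2 were used here for a pair of genes in the interval, from the gene models that the study used to annotate liver peaks. These are NOTCH4, a Notch receptor gene of the class III block, and MIC1, a class I related gene. The liver peaks in question are those the study found in Bos indicus but not in Bos taurus. Both genes are thus placed only because such a liver peak was annotated to them, so liver peaks at them are no independent result. Peaks that overlap the MIC1 gene model run from 27862715 to 27959641, and whether other genes lie within it was not determined. In the RefSeq gene table of another Bos indicus assembly, 140 genes run from NOTCH4 to GABBR1, a receptor for the neurotransmitter GABA, on chromosome 23, and 88 of them have a name. They include the complement genes CFB and C2, the cytokine genes TNF, LTA, and LTB, and MOG, which codes for a myelin protein. Which of these genes a given peak belongs to was not determined, and peaks are named by position. Of the tissue markers chosen for a check, 3 had a start position. OLIG1, a factor of oligodendrocytes, had 1 peak within 1 kb of its start in hypothalamus (summit −log10 p 14.0) and none in muscle or liver. MYOG, a factor of muscle differentiation, had 2 peaks in muscle (highest summit −log10 p 4.29) and none in hypothalamus or liver. DES, which codes for the muscle filament protein desmin, had 2 peaks in muscle (highest 7.60), 1 in hypothalamus (3.71), and none in liver. Markers of hepatocytes, leukocytes, and endothelium were not placed, so the share of immune cells in each tissue was not tested.

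Peaks were denser in the histocompatibility region than in the rest of chromosome 23 in every tissue. In hypothalamus the region had 54.2 peaks per Mb against 35.2 per Mb in the rest of the chromosome, a ratio of 1.54 (95% interval 1.34 to 1.77). In muscle it had 30.5 against 15.8 peaks per Mb, a ratio of 1.93 (1.60 to 2.34). In liver it had 17.5 against 4.87 peaks per Mb, a ratio of 3.59 (2.75 to 4.69). The region thus held 11.3% of the hypothalamus peaks of the chromosome, 13.8% of the muscle peaks, and 22.9% of the liver peaks, while making up 7.62% of its length. The intervals are Wilson intervals of these shares and cover counting error only, and neighboring peaks are not independent.

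In covered sequence, peaks took up 5.64% of the region in hypothalamus against 3.02% of the rest of the chromosome, a ratio of 1.86. The shares were 2.15% against 1.05% in muscle, a ratio of 2.04, and 0.983% against 0.365% in liver, a ratio of 2.69. Among peaks with summits of at least 5, the covered ratios were 1.92 in hypothalamus, 1.89 in muscle, and 1.89 in liver. Liver thus had no larger covered ratio than the other tissues at that setting. The order of hypothalamus and muscle depended on the length of the lists. For this, only the strongest peaks by summit were kept, so that all lists were as long as that of liver. The ratio of peak densities was then 2.01 in hypothalamus and 1.89 in muscle. The liver list was not cut, so its ratio of 3.59 is the same by construction. The cut lists still held unequal numbers of peaks on chromosome 23.

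Among the 12 consecutive windows of 4 Mb on chromosome 23, the histocompatibility region had the most peaks in each tissue. The margin was narrow in hypothalamus, with 217 peaks against 47 to 202 in the other windows, and in muscle, with 122 against 20 to 113. In liver the region had 70 peaks against 3 to 42. Over 634 such windows on chromosomes 1 to 29 and X, 45 other windows held more hypothalamus peaks, 33 held more muscle peaks, and 18 held more liver peaks.

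**Figure D1:**
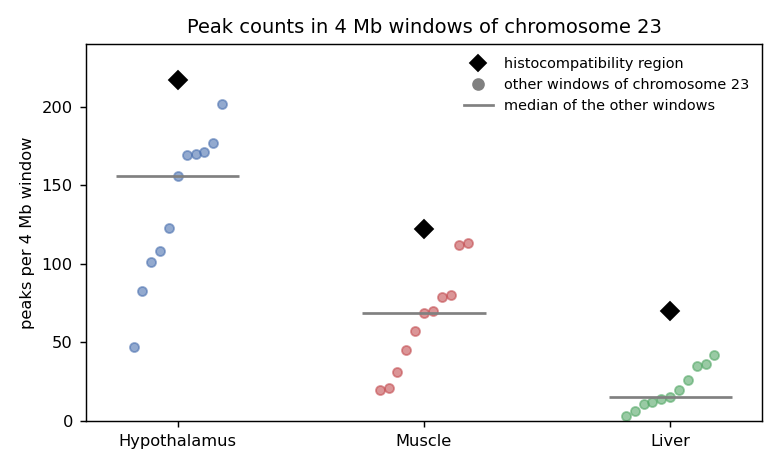
Number of peaks (y axis) in each window of 4 Mb on chromosome 23 for hypothalamus, muscle, and liver, with the histocompatibility region as a black diamond, the other windows as circles sorted by value, and their median as a line. The region lies above every other window in each tissue, just above the next one in hypothalamus (217 against 202) and muscle (122 against 113) and well above it in liver (70 against 42).

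Peaks were unevenly spread along the region. The stretch from 25853891 to 26674252 (820 kb) had no peak in any list, and only 3 longer such stretches were found on the chromosome. Between 26 and 27 Mb, hypothalamus had 1 peak, against 10 in muscle and 7 in liver. The part from 27 to 28 Mb had 79 hypothalamus peaks, 49 muscle peaks, and 28 liver peaks, and the part from 28 to 29 Mb had 78, 50, and 25. In the part from 25 to 26 Mb the lists differed more, with 59 peaks in hypothalamus, 13 in muscle, and 10 in liver.

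Relative to the genes that could be placed, peaks were densest from NOTCH4 to MIC1. From the region start to NOTCH4, peak density was 0.824 times that of the rest of chromosome 23 in hypothalamus, 0.672 times in muscle, and 1.61 times in liver. From NOTCH4 to MIC1, both included, it was 2.62, 3.86, and 7.02 times as high in the same order. From MIC1 to the region end it was 2.21, 3.11, and 5.14 times as high. The part before NOTCH4 averages over unlike stretches. Hypothalamus, muscle, and liver had 59, 13, and 10 peaks from 25 to 26 Mb, and 1, 10, and 7 from 26 to 27 Mb. These parts were set after the values were seen and are given as a description.

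**Figure D2:**
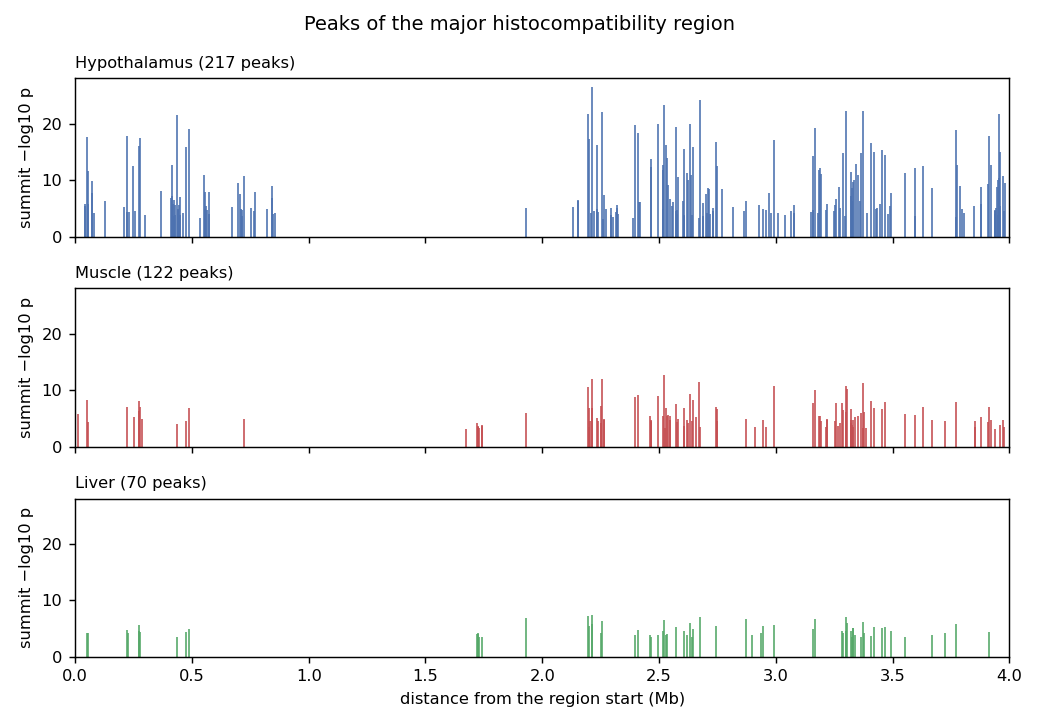
Peaks of the histocompatibility region in hypothalamus, muscle, and liver, with the distance from the region start in Mb on the x axis and the summit −log10 p on the y axis, 1 line per peak. Muscle and liver peaks crowd into the last 2 Mb, while hypothalamus has 59 peaks in the first Mb against 79 and 78 in the last 2. Between 1 and 2 Mb hypothalamus has 1 peak, where muscle has 10 and liver has 7.

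The bin of 100 kb with the most peaks, from 28.3 to 28.4 Mb, was the fullest in muscle and in liver. It held 14 hypothalamus peaks covering 25.9 kb, 16 muscle peaks covering 12.4 kb, and 11 liver peaks covering 6.69 kb, so muscle peaks outnumbered hypothalamus peaks there while covering less sequence. The fullest hypothalamus bin was at the far edge, from 28.9 to 29 Mb, with 18 peaks against 7 in muscle and 1 in liver. The next in hypothalamus, from 25.4 to 25.5 Mb, had 17 peaks against 3 in muscle and 3 in liver. The bin from 27.5 to 27.6 Mb had 16 hypothalamus, 11 muscle, and 5 liver peaks, and the bin from 27.2 to 27.3 Mb had 13, 11, and 5. After 28.3 to 28.4 Mb the fullest liver bins were from 27.6 to 27.7 Mb, with 14 hypothalamus, 10 muscle, and 6 liver peaks, and from 26.7 to 26.8 Mb, with 0, 8, and 6. Of the 40 bins, 11 had no peak in hypothalamus, 15 had none in muscle, and 18 had none in liver.

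Median peak strength in the region was within its interval of that in the rest of the chromosome. The median summit −log10 p was 6.24 in hypothalamus (95% interval 5.57 to 7.40), against 6.05 in the rest of chromosome 23. It was 4.99 (4.73 to 5.53) against 5.06 in muscle and 4.57 (4.24 to 4.93) against 4.42 in liver, so each interval held the value of the rest. This did not hold for hypothalamus among peaks with summits of at least 5, where the median in the region was 1.53 higher than in the rest (95% interval 0.52 to 3.05). Summits ranged from 3.17 to 26.4 in hypothalamus, from 3.18 to 12.7 in muscle, and from 3.44 to 7.38 in liver. The upper end was fuller in hypothalamus, where 34 of 217 peaks (15.7%, 95% interval 11.4 to 21.1) were in the top 10.0% of the whole list by summit, against 9.49% of peaks in the rest of chromosome 23. In muscle 10 of 122 peaks (8.20%, 4.51 to 14.4) were in the top 10.0% of the list, against 5.10% in the rest of the chromosome. In liver 0 of 70 peaks (95% interval 0 to 5.20) were in the top 10.0%, against 2.97% in the rest.

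Peaks of at least 2 kb numbered 26 of 217 in hypothalamus (12.0%, against 7.44% in the rest of chromosome 23), 2 of 122 in muscle (1.64%, against 1.83%), and 1 of 70 in liver (1.43%, against 2.12%). Of the hypothalamus peaks, 15 held 2 or 3 muscle peaks and 8 held 2 or 3 liver peaks. These counts were not made for the rest of the chromosome. The longest peak of all was in muscle, from 27516187 to 27523851 (7665 bp).

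Several of the strongest hypothalamus peaks of the region overlapped some of the strongest muscle and liver peaks there, but not all did. The hypothalamus peak from 25433508 to 25435208 (summit −log10 p 21.5, percentile 98.6) overlapped weak peaks in muscle (3.98, percentile 17.2) and liver (3.56, percentile 6.84). The hypothalamus peak from 28951603 to 28955369 (21.7) overlapped no muscle or liver peak. The peak with the highest summit in hypothalamus, from 27209897 to 27215373, had a summit −log10 p of 26.4 and an AUC of 31799, at percentile 99.8 of its list. It overlapped the muscle peak from 27211072 to 27213298 (summit −log10 p 12.0, percentile 96.2) and the liver peak from 27211510 to 27212608 (7.38, percentile 80.7), which had the highest summit of its tissue in the region. The 3 summits lay within 2 bp of each other.

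The interval ranked next by the lowest of its 3 summits lay in NOTCH4. Hypothalamus had a peak from 27193425 to 27196864 with a summit −log10 p of 21.7, muscle a peak from 27194619 to 27196242 with 10.6, and liver a peak from 27194620 to 27195884 with 7.15. No other peak of any list overlapped the NOTCH4 gene model, and these peaks overlapped its 3′ end, not its start.

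Further strong sites lay from 27672203 to 27674914, with summits of 24.2 in hypothalamus, 11.4 in muscle, and 7.09 in liver, and from 28298979 to 28305568, with 22.3, 10.8, and 6.96. The hypothalamus peak at the latter site was the longest of its list in the region (6590 bp) and held 3 muscle peaks and 3 liver peaks. The interval from 28165836 to 28166143 followed, with summits of 19.3, 10.0, and 6.61. The muscle peak with the highest summit, from 27516187 to 27523851, reached 12.7 with an AUC of 18772, and overlapped 3 hypothalamus peaks, the strongest at 23.3 with an AUC of 33627. The liver peak there, from 27520627 to 27523118, had the largest AUC of its tissue in the region (4888) with a summit of 6.57. The muscle peak from 27253901 to 27255669 came next in its tissue (12.0), under a hypothalamus peak of 22.0 and over a liver peak of 6.27. The hypothalamus peak from 28371581 to 28377318 reached 22.3 and overlapped 3 muscle peaks, the strongest at 11.3, and 2 liver peaks, the stronger at 6.12. Among the 5 highest liver summits, the peak from 26931116 to 26931310 (6.93) was the exception to this order, since hypothalamus reached 5.03 and muscle 5.94 there.

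Peaks of the region were shared between tissues more often than those of the rest of chromosome 23 in hypothalamus and muscle. In hypothalamus 133 of 217 peaks (61.3%, 95% interval 54.7 to 67.5) had no overlap in muscle or liver, against 74.5% (72.3 to 76.5) in the rest of the chromosome and 67.9% of the whole list. In muscle 15 of 122 peaks (12.3%, 7.59 to 19.3) had no overlap in the other tissues, against 37.8% (34.5 to 41.3) in the rest and 28.5% of the whole list. In liver the region and the rest of the chromosome did not differ beyond their intervals, with 2 of 70 peaks unshared (2.86%, 0.787 to 9.83) against 4.24% (2.32 to 7.62). The share of the whole liver list, 9.93%, was just above the interval of the region.

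Peaks that overlapped both other tissues made up 23.5% of the hypothalamus peaks in the region (51 peaks), against 11.4% in the rest of the chromosome and 20.8% of the whole list. In muscle they made up 48.4% (59 peaks), against 25.8% in the rest and 39.3% of the whole list. In liver they made up 85.7% (60 peaks), against 87.3% and 71.5%. For hypothalamus the interval of the region (18.4 to 29.6) held the share of the whole list, and for muscle (39.7 to 57.1) its lower end was just above it.

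By pairs of tissues, 99 of the 122 muscle peaks overlapped a hypothalamus peak (81.1%, against 61.3% in the rest of chromosome 23 and 62.8% of the whole list). Of the 70 liver peaks, 61 overlapped a hypothalamus peak (87.1%, against 93.2% and 74.9%) and 67 overlapped a muscle peak (95.7%, against 89.8% and 86.6%). Sharing depends on the length of the lists. At equal length of all lists, the unshared share of hypothalamus peaks was 32.5% (95% interval 23.2 to 43.4), against 51.8% in the rest of chromosome 23 and 47.9% of the whole list. For muscle it was 8.33% (3.61 to 18.1), against 37.0% and 24.5%. For liver it was 20.0% (12.3 to 30.8), with 12.7% (9.05 to 17.6) in the rest and 28.3% of the whole list. The cut lists still differed on chromosome 23, with 483 hypothalamus, 384 muscle, and 236 liver peaks outside the region. A setting chosen after seeing the data kept 306 peaks of chromosome 23 in each list. The unshared shares were then 16.7% in hypothalamus, 2.22% in muscle, and 30.0% in liver, against 35.7%, 34.1%, and 21.2% in the rest.

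When overlapping peaks of the lists were joined into loci, the region had 238 loci and the rest of chromosome 23 had 2007. Loci open in all 3 tissues made up 21.4% (95% interval 16.7 to 27.1) in the region and 9.57% (8.36 to 10.9) in the rest. Loci open in muscle only made up 6.30% (3.86 to 10.1) against 14.4% (12.9 to 16.0). Loci open in muscle and liver but not in hypothalamus made up 2.94% (7 loci, 1.43 to 5.95) against 0.299% (6 loci, 0.137 to 0.651). Of the 7 loci, 6 lie in the same cluster of 24.7 kb, so they are not independent, while the interval treats them as if they were. Over chromosomes 1 to 29 and X outside the region, this last pattern made up 0.950% of 83119 loci.

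**Figure D3:**
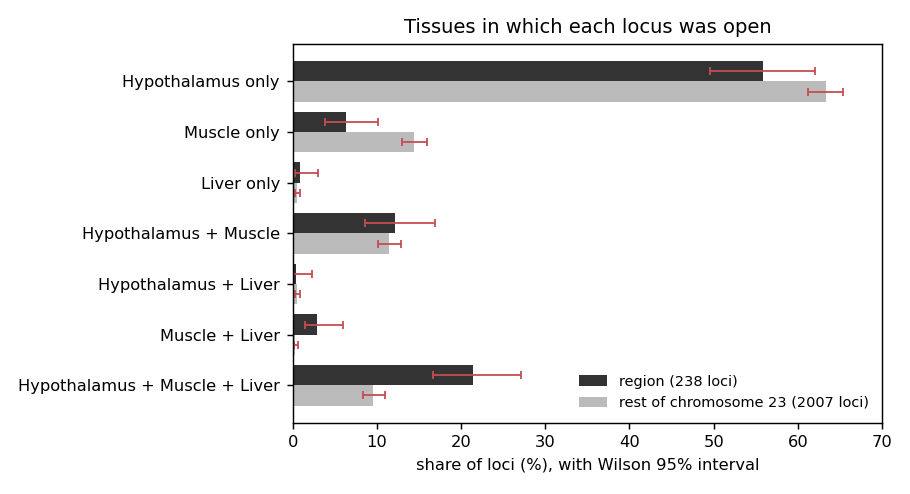
Share of loci in percent (x axis) for each combination of tissues in which a locus had a peak, in the histocompatibility region (black, 238 loci) and the rest of chromosome 23 (grey, 2007 loci), with Wilson 95% intervals in red. Loci open in all 3 tissues (21.4% against 9.57%) and in muscle and liver without hypothalamus (2.94% against 0.299%) took a larger share in the region, and loci open in muscle only a smaller one (6.30% against 14.4%). Of the 7 loci of the region open in muscle and liver without hypothalamus, 6 lie in the same cluster of 24.7 kb.

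Intervals covered by peaks of all 3 lists numbered 60 in the region, which is 22.3% (95% interval 17.7 to 27.6) of the 269 on chromosome 23. This came to 15.0 per Mb against 4.31 per Mb in the rest of the chromosome, a ratio of 3.48. They covered 31.2 kb, with a median length of 448.5 bp and a range of 179 to 2492 bp. The summits of the 3 tissues lay within 100 bp of each other in 36 of the 60 intervals, and the median distance between the outermost summits was 74.5 bp. Across the intervals the summit −log10 p of hypothalamus and muscle had a Spearman rho of 0.725 (Pearson r 0.708, n = 60). Muscle and liver had a rho of 0.559 (r 0.645), and hypothalamus and liver a rho of 0.387 (r 0.343). These are descriptions across intervals, some of which lie in the same long hypothalamus peak and so share its value.

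At these intervals the rank of a peak within its list was highest in hypothalamus and lowest in liver. The median percentile of the summit was 93.4 for hypothalamus, 71.5 for muscle, and 40.6 for liver, and hypothalamus had the highest percentile in 57 of 60 intervals. The lists differ in length and in the share of peaks outside chromosomes 1 to 29 and X. Liver peaks are also mostly shared, so these percentiles are not on the same footing. The order was not computed for the 209 such intervals in the rest of chromosome 23, so it cannot be read as a trait of the region. In the other 3 of the 60 intervals of the region liver had the highest percentile, and 2 of them lie in the MIC1 gene model. In the interval of MIC1 from 27871847 to 27872293 the summit was 6.28 in hypothalamus (percentile 53.4), 4.96 in muscle (42.4), and 6.63 in liver (74.4). In the interval of MIC1 from 27943210 to 27943522 it was 4.91 (33.9), 4.75 (38.0), and 5.54 (59.2). The interval outside MIC1, from 26931122 to 26931300, had 5.03 (36.0), 5.94 (59.4), and 6.93 (77.4), and it holds the only hypothalamus peak between 26 and 27 Mb.

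**Figure D4:**
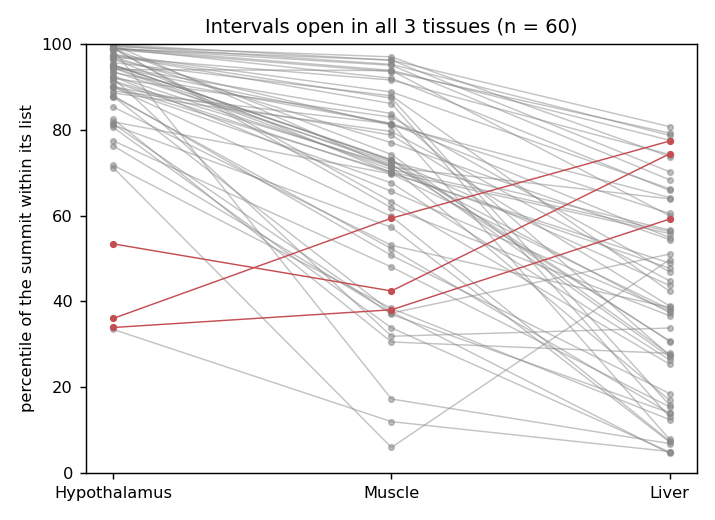
Percentile of the summit within its own list (y axis) in hypothalamus, muscle, and liver for the 60 intervals of the region that were open in all 3 tissues, 1 line per interval. Most lines fall from left to right. Liver rather than hypothalamus had the highest percentile in the 3 in red, of which 2 lie in the MIC1 gene model.

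The MIC1 gene model held 5 hypothalamus peaks, 4 muscle peaks, and 4 liver peaks, with summits of at most 6.63. It was placed only through a liver peak, so liver peaks in it are not independent of the choice of gene. Both liver peaks of the region that overlapped no peak of another tissue lay in the MIC1 gene model. They run from 27898146 to 27898483 (summit −log10 p 3.87, AUC 259) and from 27935586 to 27936274 (4.18, AUC 481), at percentiles 15.6 and 25.7 of the liver list. Hypothalamus had 3 unshared peaks in MIC1, with summits of 4.55 to 5.53, and muscle had 2, with summits of 3.43 and 3.41.

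A cluster of peaks open in muscle and liver lay from 26719471 to 26744177 (24.7 kb), inside the 1077 kb from 25853891 to 26931121 in which hypothalamus had no peak. It held 8 muscle peaks, 7 of them over a liver peak, and 6 liver peaks in 6 shared loci, and 5 of these loci lay within the first 8.79 kb. All were weak, with summits of 3.27 to 4.13 in muscle and 3.44 to 4.12 in liver, at or below percentile 21.5 of the muscle list and 23.9 of the liver list. AUC ran from 209 to 793 in muscle and from 251 to 883 in liver. Reads with several alignments were counted as fractions at each place by the peak caller, and how many such reads fell here cannot be told from the lists. Of the 7 loci in the region with this pattern, the other lies from 28724288 to 28724522 (4.52 in muscle and 4.26 in liver). With summits of at least 5, none of these loci would remain, since the highest is 4.52.

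**Figure D5:**
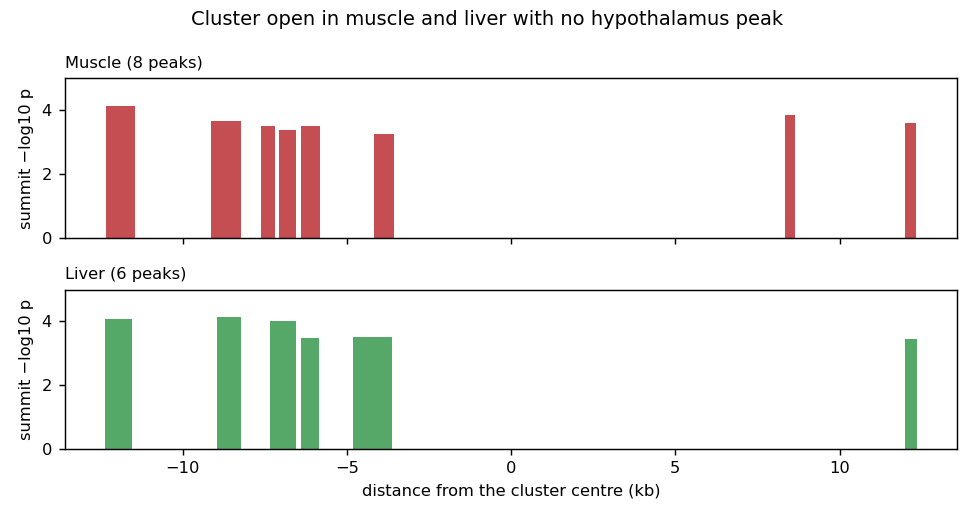
Muscle and liver peaks of the cluster with no hypothalamus peak, with the distance from the cluster centre in kb on the x axis and the summit −log10 p on the y axis. Each bar is 1 peak and is as wide as the peak, and the 8 muscle peaks and 6 liver peaks all stay between 3.27 and 4.13.

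Among the unshared peaks of hypothalamus, 1 stood far above the rest. The peak from 28951603 to 28955369 (3767 bp) had a summit −log10 p of 21.7 and an AUC of 18924, at percentile 98.8 of its list, with no muscle or liver peak over it. The next unshared peaks, from 28343760 to 28345332 and from 28772952 to 28774562, had summits of 12.8 and 12.7. In muscle the strongest unshared peaks lay from 25011972 to 25012602 (5.75), from 27546225 to 27546813 (5.41), and from 25251738 to 25252004 (5.22), each near the middle of its list (percentiles 56.6, 51.0, and 47.6).

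Within the region, peaks shared with both other tissues had the highest median summits. The median summit −log10 p in hypothalamus was 5.03 for the 133 unshared peaks, 9.14 for the 33 peaks shared with 1 tissue, and 16.1 for the 51 peaks shared with both. In muscle the medians were 3.87 for 15 peaks, 4.48 for 48, and 6.89 for 59, and in liver 4.03 for 2, 4.04 for 8, and 4.69 for 60. Against peaks of the same sharing in the rest of chromosome 23, the medians of the fully shared peaks were 16.1 against 16.2 in hypothalamus, 6.89 against 7.59 in muscle, and 4.69 against 4.52 in liver. The unshared peaks were at 5.03 against 5.39 in hypothalamus and 3.87 against 4.58 in muscle. The median length in hypothalamus went from 417 bp for unshared peaks over 911 bp to 1701 bp for fully shared peaks, and in muscle from 341 bp over 449.5 bp to 712 bp. Liver did not follow this order, with 513.5 bp, 654 bp, and 460 bp.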

How the data were processed

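ATAC-seq reads of 9 libraries (3 heifers, 3 tissues) were aligned by the authors to ARS-UCD1.2 with HISAT2, keeping several alignments per read, and peaks were called with Genrich 0.6.1 with PCR duplicates and the mitochondrial chromosome left out. The deposited lists give, per peak, the −log10 p at the summit, combined over heifers and not corrected for multiple tests, and the AUC, a score that was not scaled between lists. Starts are printed from 1. Open means that a peak was called, so a site without a peak may still hold weaker signal.

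Peaks were assigned to the region and compared with the rest of chromosome 23, which was taken to end at the highest peak end (52.5 Mb). Overlaps of at least 1 bp counted as shared and were checked with bedtools 2.31.1. The code (python 3.11.15, pandas 2.3.3, scipy 1.17.1) recovered 11 of 11 planted quantities when tested on simulated data. Intervals are Wilson or, for medians, exact binomial, both 95%. Named sites are, in each tissue, the 5 highest summits, the 3 largest AUC, and the 3 strongest unshared peaks, the 5 strongest intervals open in all tissues, the fullest bins, and the longest stretch without peaks; others were chosen after their values were seen. The region, the lists, and the rules were chosen with earlier results of these data known. NOTCH4, MIC1, and marker starts come from gene models in the authors' annotation. No genome or full annotation of ARS-UCD1.2 was used here, so gene starts, gene lists, motifs, and sequences were not analyzed.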

Additional observations from a re-analysis of the deposited data

How the results depend on the processing

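Of 98 values recomputed on the same scale under other settings for 16 results, 73 stayed within 1.5 times the count or inside the interval of the reported value, and all 24 density ratios, the reported ones included, were above 1. The difference in median summit in muscle, -0.07 with an interval that holds 0, changed sign in 4 of 8 settings: it was 0.32 with summits of at least 5, 0.28 at equal list length, 0.30 with equal numbers on chromosome 23, and positive for AUC per bp. As percentiles of AUC per bp, another scale, the differences were 4.57 in hypothalamus, 5.92 in muscle, and 2.82 in liver, and each interval held 0. No paired analysis was possible because values of individual heifers cannot be read from the lists, so no heifer could be left out either. The share of covered gene starts was not run, since gene starts were not placed. With summits of at least 5, the region kept 143 hypothalamus, 61 muscle, and 25 liver peaks and 21 intervals open in all tissues. The median summit in hypothalamus was then 1.53 above the rest, with an interval that no longer held 0. The unshared share of muscle peaks was 6.56%, against 31.1% in the rest of the chromosome. The ratios of covered sequence were 1.92 in hypothalamus, 1.89 in muscle, and 1.89 in liver. With as many peaks in each list as in liver (22291), hypothalamus kept 80 peaks and muscle 60, and the hypothalamus density ratio was 2.01. Unshared shares were then 32.5% in hypothalamus and 20.0% in liver, against 51.8% and 12.7% in the rest of the chromosome. With 306 peaks of chromosome 23 in each list, a setting chosen after seeing the data, hypothalamus kept 48 peaks and muscle 45, the hypothalamus ratios were 2.25 for density and 2.60 for covered sequence, and the unshared shares were 16.7% in hypothalamus, 2.22% in muscle, and 30.0% in liver, against 35.7%, 34.1%, and 21.2% in the rest of the chromosome. Without the first 1 Mb of the chromosome, the liver ratio of covered sequence was 3.55. Against chromosomes 1 to 29 and X, density ratios were 2.01 in hypothalamus and 2.63 in muscle, and covered ratios were 2.43 in hypothalamus, 2.76 in muscle, and 3.48 in liver. Intervals cover counting error only, and depth cannot be read from the lists.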
